A study of Mus musculus with 24 samples.

Results

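The 71 genes described here carry symbols of the gene families whose members dock, prime, fuse and recycle synaptic vesicles. Not all of them serve synaptic vesicles, since 17 are SNAREs of other membrane traffic and 1 is a pseudogene. The 71 were chosen by symbol from the genes listed in all 4 expression tables of a mouse stroke study, and make up 71 of 14014 such genes. The rule takes numbered synaptotagmins (Syt), syntaxins (Stx) and their binding proteins (Stxbp), vesicle-associated membrane proteins (Vamp), numbered Snap genes, synapsins (Syn), the Sv2 family, complexins (Cplx), Rims, Syp and Sypl, synaptogyrins (Syngr), Unc13 genes, Bsn, Pclo, Nsf and Dnm1. The rule uses symbols and listing in the tables and no expression difference, although it was written with earlier results of these data known. By role, 5 were neuronal SNAREs, 11 regulators of SNARE complexes, 9 active-zone proteins, 15 synaptotagmins, 11 vesicle membrane or vesicle-associated proteins, 2 genes of vesicle retrieval, 17 other SNAREs and 1 a processed pseudogene, Vamp7-ps. Of 82 annotated mouse symbols that meet the rule, 11 were listed in none of the tables, among them Syt8, Syt15, Vamp5, Cplx4 and Unc13d.

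Total RNA of the cortex was sequenced in 24 libraries, 6 in each of 4 groups. All animals were male, 3 to 4 months old, of the strain given as C57BL/6N-Cdr1asem1Nikr, and all had undergone transient occlusion of the middle cerebral artery for 1 h with a filament, a rodent model of ischemic stroke, and 1 day of reperfusion. The KO animals lack ciRS-7, or Cdr1as, a circular RNA that binds the microRNA miR-7, and WT animals carry it. One sample marked PI and one marked CL came from each animal, which gives the groups PI WT, CL WT, PI KO and CL KO. The labels do not spell CL and PI out, and the CL samples came from operated animals too, so no group shows an unoperated brain. The study set out to compare WT with KO animals after stroke, and the tables also allow PI to be compared with CL within each genotype.

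Values were deposited as log2 CPM, the base-2 logarithm of counts scaled to library size (CPM). Each of the 4 tables holds 2 groups and was scaled separately, so levels are compared only within a table. The effective depth was 5.27 to 10.5 M reads per library (median 6.94), and 3 reads, the limit that a count of 0 allows, came to between 0.285 and 0.569 CPM (counting error alone). The lowest deposited value of any of the 71 genes was 0.953 CPM, so none lay at that limit. Within each group of 6, every gene's outer values had been replaced by the group's quartiles before deposit. The lowest and highest value given below are therefore those quartiles, and the true extremes are not known. Where groups are said to overlap or not, this is of the deposited values, and 1 outlying library at either end of a group would not show. Cdr1as itself ran from 2610.2 to 2931 CPM in the 6 PI WT libraries and from 0.001 to 0.166 CPM in the 6 PI KO libraries, and from 3434 to 3801 CPM in CL WT and 0.004 to 0.0601 CPM in CL KO, so the deposited levels matched the labelled genotypes, within the same limit. All 12 excitatory cortical marker genes were listed, and none lay at the lowest value of its table in all 6 libraries of a group. Some libraries held the tied end values of a group more often than others over the 71 genes. Animal 4 shared the highest value in 44 genes in PI KO and in 40 in PI WT, animal 2 in 37 in PI WT, and animal 5 of PI KO shared the lowest in 38 and the highest in 7, while animal 4 of CL WT shared the lowest in 36. Results without these libraries were not computed, since the true end values are not known.

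A synaptic vesicle fuses when a SNARE on the vesicle, VAMP2 (or VAMP1), zips together with syntaxin 1A and SNAP25 on the plasma membrane. The Munc13 proteins (Unc13 genes) guide the assembly of this complex, complexins clamp and activate it, and synaptotagmins sense the calcium that triggers fusion. RIM proteins (Rims genes), bassoon (Bsn) and piccolo (Pclo) hold vesicles and calcium channels together at the active zone, synapsins tether the reserve of vesicles, and dynamin 1 (Dnm1) cuts vesicles from the membrane when they are retrieved. In the cortex nearly all neurons use this machinery, while many of the other SNAREs serve membrane traffic in every cell type. ciRS-7 carries a great many miR-7 sites and is abundant in cortical neurons, which is why matches to miR-7 are shown for these genes.

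Both miR-7 species are shown because their shared seed, bases 2 to 8 in capitals, is what a match in a 3′ UTR has to pair with. The sequences are from RefSeq on GRCm38.p6, where miR-7a-5p lies at chr7:78888295-78888317 and miR-7b-5p at chr17:56243017-56243040, both on the plus strand.
mmu-miR-7a-5p: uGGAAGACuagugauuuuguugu
mmu-miR-7b-5p: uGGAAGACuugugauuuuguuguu
The complement of the seed, GTCTTCC, was searched on the transcribed strand in the longest annotated 3′ UTR of each gene (GENCODE M21 on GRCm38). It occurred in 12 of the 70 genes that have a 3′ UTR (17.1%), compared with 1809 of 12204 listed genes (14.8%). The 3′ UTRs of the 70 genes were also longer, with a median of 2149.5 bases against 1329.5. Cplx1, a complexin, held 4 matches, Stxbp6 and the synaptotagmin Syt2 held 3 each, Syt14 held 2, and Cplx2, Nsf, Snap29, Stx8, Stxbp2, Syn3, Sypl and Syt6 held 1 each.

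The 4 matches of Cplx1, the gene with the most, lie on the minus strand of chromosome 5 at 108519622-108519628, 108519594-108519600, 108519307-108519313 and 108518989-108518995. They are given 5′ to 3′ in this order, with the bases that match the seed in capitals.
Cplx1 match a: accattcgctctGTCTTCCtgtctgtgagc
Cplx1 match b: gctaccaccctaGTCTTCCccagcagcctt
Cplx1 match c: ctccaaatgcccGTCTTCCtaaaagccctg
Cplx1 match d: aaggccagcctgGTCTTCCcataacccttc
A match followed by A is the longest kind of seed match. It was found in 3 of the genes, Stxbp6, Syn3 and Syt2. The Syn3 match lies at chr10:86292910-86292916 on the minus strand, the Syt2 match at chr1:134752154-134752160 on the plus strand, and the Stxbp6 matches at chr12:44853690-44853696 and chr12:44853324-44853330 on the minus strand.
Syn3: acgtctccctcaGTCTTCCaaccctaaata
Syt2: gtctgatggtggGTCTTCCaggcagggcag
Stxbp6 match a: acacaaatatttGTCTTCCaaaactggatt
Stxbp6 match b: tccttcctgcttGTCTTCCaccaaacacac
These are matches of letters, and binding was not measured. The Syn3 match lies inside the gene, which on that strand ends at 86055125. Other 3′ UTRs of Syn3 were not searched, so a Syn3 transcript may lack the match.

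The cyclic AMP response element, a motif bound by CREB in many neuronal promoters, was searched in windows around gene starts (RefSeq, GRCm38.p6). Its full form TGACGTCA, which reads the same on both strands, was in the windows of 2 of 55 genes that had one, Syn1 and Stxbp3 (3.64%), the same share as among 10213 listed genes (3.64%). Across all 32851 windows of that length it was in 1.79%. The shorter form TGACG, which the full motif contains, was searched on both strands and was in 13 of 55 (23.6%), compared with 35.7% of the 10213 genes. The Syn1 stretch is shown because Syn1 is discussed below against its paralogue Syn2, whose window does not hold these letters. It lies at chrX:20921010-20921137 on the minus strand, 5′ to 3′, with the motif in capitals.
Syn1: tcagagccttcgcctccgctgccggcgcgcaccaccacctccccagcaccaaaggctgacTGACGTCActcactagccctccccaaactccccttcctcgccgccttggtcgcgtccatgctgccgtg

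Genes of the release machinery that differed between PI and CL were mostly lower in PI, by 1.15-fold to 1.57-fold, in both genotypes. Of the genes called lower in both genotypes, syntaxin 1A (Stx1a), complexin 2 (Cplx2) and Munc13-1 (Unc13a) fell the most. In WT animals, 17 of the 71 genes (23.9%) were lower in PI at an adjusted p under 0.05 and 3 (4.23%) were higher. The same test called 5.4% of all 14489 genes of that table lower and 5.2% higher. In KO animals, 13 genes (18.3%) were lower and 2 (2.82%) higher, against 4.94% and 5.11% of 14338 genes. The test was a moderated trimmed-mean test on the 4 recoverable values of each group (limma's variance moderation, Benjamini-Hochberg adjustment over the whole table). With a prior variance that does not follow the expression level, 9 of the 20 calls in WT and 6 of the 15 in KO were kept, among them Stx1a, Cplx2, Unc13a and Rims1 in both genotypes. On the values as deposited, limma called 38 genes in each genotype without a replicate block and 40 in WT and 39 in KO with the animal as a block, the 20 and 15 among them, where 45.6% and 47.1% of all genes were called with the block.

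Most changes were small. The median change of the 71 genes was -0.03 on the log2 scale in WT and -0.06 in KO, where all genes had a median of 0.01 and -0.00. The deposited values of PI lay wholly below those of CL for 19 genes in WT (26.8%, against 16.3% of all genes) and for 28 in KO (39.4%, against 17.2%). They lay wholly above for 12 genes in WT (16.9%, against 16.5%) and for 6 in KO (8.45%, against 17.1%). The genes called lower were among the more abundant, with a median level of 7.02 log2 CPM in CL WT against 5.66 for those not called, and 8.60 against 5.75 in CL KO. Precision is better for abundant genes, and its part in which genes were called was not tested.

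**Figure D1:**
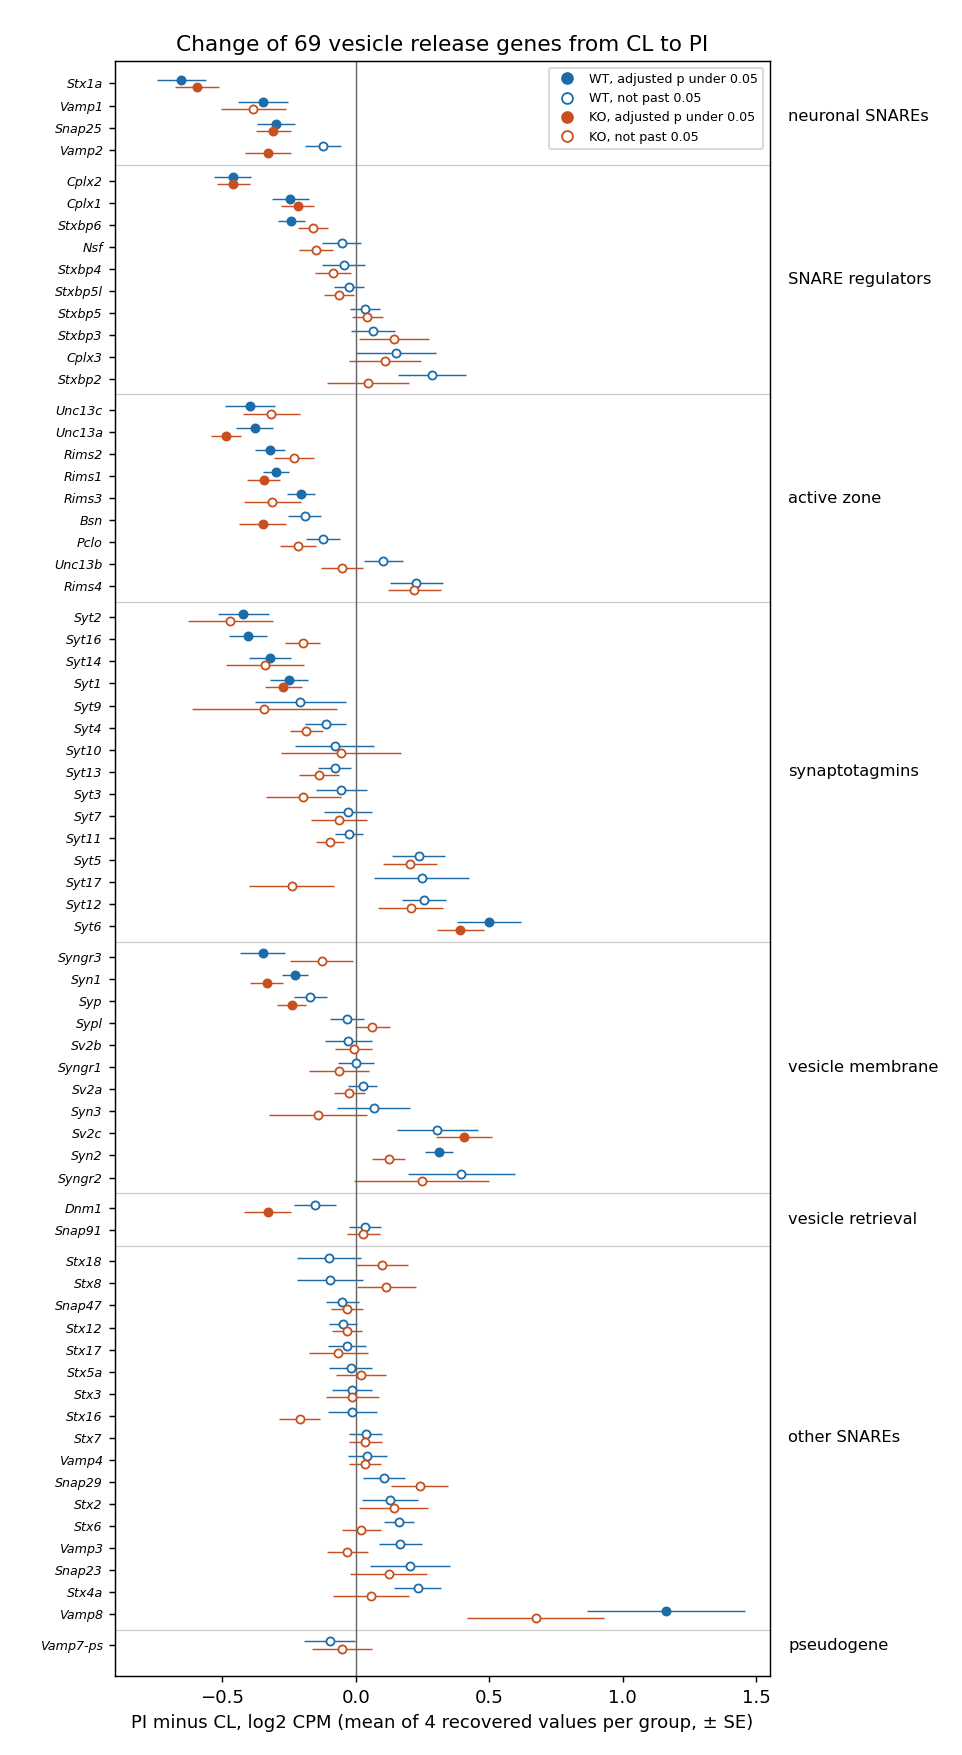
Change from CL to PI of 69 of the 71 genes (horizontal axis, log2 CPM, mean of 4 recovered values per group with SE), grouped by role, with WT in blue and KO in orange. Filled circles passed an adjusted p of 0.05, and these lie left of 0 for 17 genes in WT and 12 in KO and right of 0 for 3 and 2.

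Stx1a, Snap25, Cplx1, Cplx2, Unc13a, Rims1, Syn1 and Syt1, 8 genes in all, were lower in both genotypes. They are 47.1% of the genes lower in WT and 61.5% of those lower in KO. A further 9 were called in WT and not in KO (Vamp1, Stxbp6, Rims2, Rims3, Unc13c, Syt2, Syt14, Syt16, Syngr3), and 5 in KO and not in WT (among them Vamp2, Bsn, Syp and Dnm1). No difference between the 2 genotypes passed the test for any of these (below), so the split between the lists is not shown to be a difference between WT and KO. All 26 genes called in either genotype had the same sign in both, and 45 were called in neither. The overlap and the agreement of sign were not computed over all genes, so neither is shown to be particular to the 71. By animal, on the deposited values, between 31 and 46 of the 71 genes were lower in PI than in CL in WT and between 38 and 51 in KO. Animal 4 of WT had the fewest, 31, and a median PI minus CL of 0.03, whereas each of the others had a negative median. Counts by animal were not made over all genes. In the comparison of groups 47.7% of all genes were lower in value in WT and 50.1% in KO. An animal's value here may also be a quartile of its group and not its own.

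Syntaxin 1A (Stx1a, ENSMUSG00000007207.10, chr5:135023482-135051100), a plasma membrane SNARE, had the largest fall in both genotypes. Its values ran from 6.54 to 6.65 log2 CPM (median 6.60) in CL WT and from 5.79 to 6.09 (median 5.96) in PI WT. They ran from 6.54 to 6.65 (median 6.59) in CL KO and from 5.87 to 6.08 (median 6.04) in PI KO. The deposited values of PI lay wholly below those of CL in each genotype. The change was -0.65 (SE 0.09), or 1.57-fold lower, with an adjusted p of 0.000785 in WT, and -0.59 (SE 0.08), or 1.51-fold lower, with an adjusted p of 0.000856 in KO (moderated trimmed-mean test with limma).

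SNAP25, the other plasma membrane SNARE, was the most abundant of the 71 genes per length, at 448 CPM per kb in CL WT, ahead of Syt1 at 228 and Sv2b at 115. Length is taken throughout as all annotated exons of a gene merged, and not as that of a single transcript. Snap25 (chr2:136713453-136782428) ran from 11.49 to 11.64 log2 CPM (median 11.59) in CL WT and from 11.19 to 11.35 (median 11.27) in PI WT. In KO it ran from 11.52 to 11.61 in CL and from 11.15 to 11.31 in PI. As deposited, PI lay wholly below CL in both, and the fall was 1.23-fold in WT (-0.30, SE 0.07, adjusted p = 0.0167) and 1.24-fold in KO (-0.31, SE 0.07, adjusted p = 0.0112).

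Of the vesicle SNAREs, each was called in 1 genotype. Vamp1 ran from 6.23 to 6.31 in CL WT and from 5.78 to 6.08 in PI WT, a change of -0.35 (SE 0.09, adjusted p = 0.0316), and changed by -0.38 (SE 0.12, adjusted p = 0.0642) in KO. Vamp2, the main vesicle SNARE of the forebrain, ran from 7.44 to 7.65 in CL KO and from 7.12 to 7.33 in PI KO, a change of -0.33 (SE 0.09, adjusted p = 0.0327). In WT its groups overlapped and the change was -0.12 (SE 0.07, adjusted p = 0.297). Of the 5 neuronal SNAREs, 3 were thus called lower in each genotype, and the median change was -0.30 in WT and -0.33 in KO. Over all genes 5.4% were called lower in WT and 4.94% in KO.

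**Figure D2:**
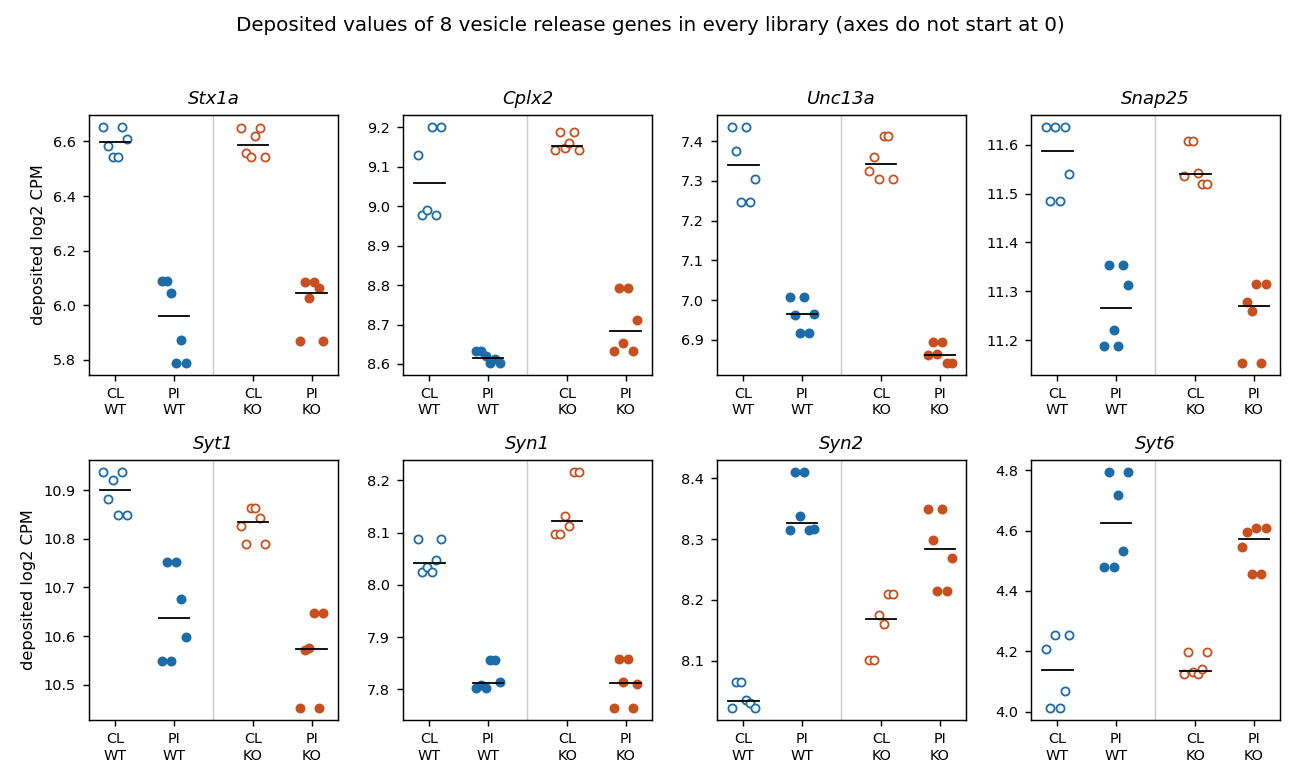
Deposited log2 CPM (vertical axis) of 8 genes in each of the 6 libraries of each group, with the group median as a bar, where WT and KO come from separately scaled tables. PI lies below CL without overlap for Stx1a, Cplx2, Unc13a, Snap25, Syt1 and Syn1, and above it for Syn2 and Syt6.

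Among the 11 regulators of SNARE complexes, 3 were lower in each genotype and none higher. Over all genes 5.4% were called lower in WT and 4.94% in KO. Complexin 2 (Cplx2, chr13:54371349-54383917), the most abundant complexin, ran from 8.98 to 9.20 (median 9.06) in CL WT and from 8.60 to 8.63 (median 8.62) in PI WT. In KO it ran from 9.14 to 9.19 in CL and from 8.63 to 8.79 in PI. The change was -0.46 in both (SE 0.07 and 0.06, adjusted p = 0.00118 in WT and 0.000625 in KO), a fall of 1.38-fold and 1.37-fold. Complexin 1 fell by 0.25 in WT (SE 0.07, adjusted p = 0.0384) and by 0.22 in KO (SE 0.06, adjusted p = 0.043). Cplx3, found mainly at ribbon synapses and in some cortical neurons, was much scarcer, from 2.51 to 2.77 in CL WT, and its changes were 0.15 and 0.11 with overlapping groups.

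Stxbp6, or amisyn, a syntaxin-binding inhibitor of fusion, was lower in WT (-0.24, SE 0.05, adjusted p = 0.00926) and changed by -0.16 in KO (adjusted p = 0.0904). Nsf, the ATPase that takes used SNARE complexes apart, changed by -0.05 and -0.15 and did not pass the test. Stxbp2 and Stxbp3, syntaxin-binding proteins with a wide tissue range, had positive values that did not pass the test. Stxbp2 changed by 0.28 and 0.05 and Stxbp3 by 0.07 and 0.14.

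At the active zone, 5 of 9 genes were lower in WT and 3 in KO, and none was higher. Over all genes 5.4% were called lower in WT and 4.94% in KO. Munc13-1 (Unc13a, chr8:71624417-71671757), the main priming factor of cortical synapses, ran from 7.25 to 7.44 (median 7.34) in CL WT and from 6.92 to 7.01 (median 6.96) in PI WT. It ran from 7.30 to 7.41 in CL KO and from 6.84 to 6.89 in PI KO. The fall was 1.30-fold in WT (-0.38, SE 0.07, adjusted p = 0.00403) and 1.40-fold in KO (-0.49, SE 0.06, adjusted p = 0.000302), in KO the smallest adjusted p of the 71 genes. Unc13c changed by -0.40 in WT (SE 0.09, adjusted p = 0.0158) and by -0.32 in KO (adjusted p = 0.0821), whereas Unc13b, the Munc13-2 gene, changed by 0.10 and -0.05 with overlapping groups.

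RIM1 (Rims1, chr1:22286251-22805994) ran from 7.81 to 7.88 in CL WT and from 7.52 to 7.56 in PI WT, and from 7.83 to 7.91 in CL KO and from 7.46 to 7.60 in PI KO. Its change was -0.30 (SE 0.05, adjusted p = 0.00201) in WT and -0.34 (SE 0.06, adjusted p = 0.00429) in KO. RIM2 and RIM3 were called in WT (-0.32, adjusted p = 0.00271, and -0.20, adjusted p = 0.0226) and had changes of -0.23 and -0.31 in KO (adjusted p = 0.0701 and 0.0834). Rims4, which makes a short RIM protein, was higher in value in PI in both genotypes without overlap, by 0.23 and 0.22, and passed the test in neither (adjusted p = 0.184 and 0.198).

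The scaffolds bassoon and piccolo are very large proteins that organise the active zone. Bsn ran from 8.86 to 8.96 in CL KO and from 8.40 to 8.69 in PI KO, a change of -0.35 (SE 0.09, adjusted p = 0.0275). In WT its groups, 8.64 to 8.81 and 8.49 to 8.57, did not overlap either, and the change was -0.19 (SE 0.06, adjusted p = 0.0699). Pclo changed by -0.12 and -0.22 and was called in neither genotype.

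Of the 15 synaptotagmins, 4 were lower and 1 was higher in WT, and 1 was lower and 1 higher in KO. Over all genes 5.4% were called lower and 5.2% higher in WT, and 4.94% and 5.11% in KO. The KO counts of synaptotagmins are therefore near the share over all genes. Synaptotagmin 1 (Syt1, chr10:108497650-109010982), the calcium sensor of fast release in the forebrain, ran from 10.85 to 10.94 in CL WT and from 10.55 to 10.75 in PI WT, and from 10.79 to 10.86 in CL KO and from 10.45 to 10.65 in PI KO. It fell by 0.25 (SE 0.07, adjusted p = 0.0391) in WT and by 0.27 (SE 0.07, adjusted p = 0.0289) in KO. Synaptotagmin 2, the fast sensor of many inhibitory and hindbrain synapses, changed by -0.42 in WT (SE 0.10, adjusted p = 0.0143) and by -0.47 in KO, where it ran from 5.62 to 6.10 in CL and the adjusted p was 0.0821. Syt14 and Syt16, family members that do not bind calcium, were lower in WT by 0.32 (adjusted p = 0.0199) and 0.40 (adjusted p = 0.00285). Syt7, a sensor of slower release, changed by -0.03 and -0.06 with overlapping groups.

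Syt6 was the one gene of the 71 called higher in both genotypes. Syt5 (0.24 and 0.20) and Syt12 (0.26 and 0.21) also had positive changes in both, and neither passed the test within a genotype. Syt6 is a low-abundance synaptotagmin, at 3.01 CPM per kb in CL WT, and lies at chr3:103575231-103645569. Its values ran from 4.01 to 4.26 (median 4.14) in CL WT and from 4.48 to 4.80 (median 4.63) in PI WT, and from 4.12 to 4.20 in CL KO and from 4.46 to 4.61 in PI KO. The rise was 1.41-fold in WT (0.50, SE 0.12, adjusted p = 0.0171) and 1.31-fold in KO (0.39, SE 0.09, adjusted p = 0.0157).

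The 11 vesicle membrane and vesicle-associated genes did not move together. Synapsin I (Syn1, chrX:20860511-20921004) ran from 8.02 to 8.09 in CL WT and from 7.80 to 7.86 in PI WT, and from 8.10 to 8.22 in CL KO and from 7.76 to 7.86 in PI KO. It fell by 0.23 (SE 0.05, adjusted p = 0.0102) in WT and by 0.33 (SE 0.06, adjusted p = 0.0046) in KO. Synapsin II (Syn2, chr6:115134902-115282006) went the other way. It ran from 8.02 to 8.06 in CL WT and from 8.31 to 8.41 in PI WT, a rise of 0.31 (SE 0.05, adjusted p = 0.00232), and in KO changed by 0.12 (SE 0.06, adjusted p = 0.251). Syn3, the scarcest synapsin, changed by 0.07 and -0.14 with overlapping groups.

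Synaptophysin (Syp), the classic marker protein of synaptic vesicles, ran from 8.58 to 8.68 in CL KO and from 8.37 to 8.43 in PI KO, a change of -0.24 (SE 0.05, adjusted p = 0.0161). In WT it changed by -0.17 (SE 0.06, adjusted p = 0.113). Synaptogyrin 3 (Syngr3) was lower in WT by 0.35 (SE 0.09, adjusted p = 0.0193) and changed by -0.13 in KO (adjusted p = 0.561), while Syngr1 changed by 0.00 and -0.06. Syngr2, the family member of non-neuronal cells, changed by 0.40 and 0.25 and passed the test in neither. Of the SV2 proteins, targets of levetiracetam and of botulinum toxin, Sv2a and Sv2b changed by no more than 0.03 in size in either genotype. Sv2c ran from 5.11 to 5.31 in CL KO and from 5.47 to 5.77 in PI KO, a rise of 0.40 (SE 0.11, adjusted p = 0.0301), and changed by 0.31 (SE 0.15, adjusted p = 0.251) in WT.

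Of the 2 genes of vesicle retrieval, Dnm1 ran from 8.82 to 8.97 in CL KO and from 8.42 to 8.67 in PI KO, a change of -0.33 (SE 0.09, adjusted p = 0.0322), and changed by -0.15 in WT (adjusted p = 0.274). Snap91, which makes the clathrin adaptor AP180 and meets the rule only by its symbol, changed by 0.03 in both.

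The 17 other SNAREs, which serve the Golgi, endosomes, lysosomes and the surface of other cells, included no gene called lower in either genotype, where 5.4% and 4.94% of all genes were. In value 8 of the 17 were lower in WT and 6 in KO. Their changes ran from -0.10 (Stx18) to 1.16 (Vamp8) in WT and from -0.21 (Stx16) to 0.67 (Vamp8) in KO, with a median of 0.04 in both. Vamp8, or endobrevin, a SNARE of endosomes and of secretion outside neurons, was the scarcest of the 71 genes per length, at 0.549 CPM per kb in CL WT. It ran from -0.04 to 0.56 log2 CPM in CL WT and from 1.34 to 1.66 in PI WT, a rise of 2.24-fold (1.16, SE 0.30, adjusted p = 0.0245), and changed by 0.67 in KO (SE 0.26, adjusted p = 0.119). The pseudogene Vamp7-ps, whose reads may come from near-identical copies, changed by -0.10 and -0.05.

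Paralogues are set side by side by their changes in WT and KO in the plot of gene families, as a description with no test, since the families were chosen after their values had been seen. Syn1 changed by -0.23 and -0.33, Syn2 by 0.31 and 0.12 and Syn3 by 0.07 and -0.14. Unc13a changed by -0.38 and -0.49 and Unc13b by 0.10 and -0.05. Rims1, Rims2 and Rims3 had negative changes in both genotypes and Rims4 positive ones. Both complexins named above fell, while Cplx3 had positive values that did not pass the test.

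**Figure D3:**
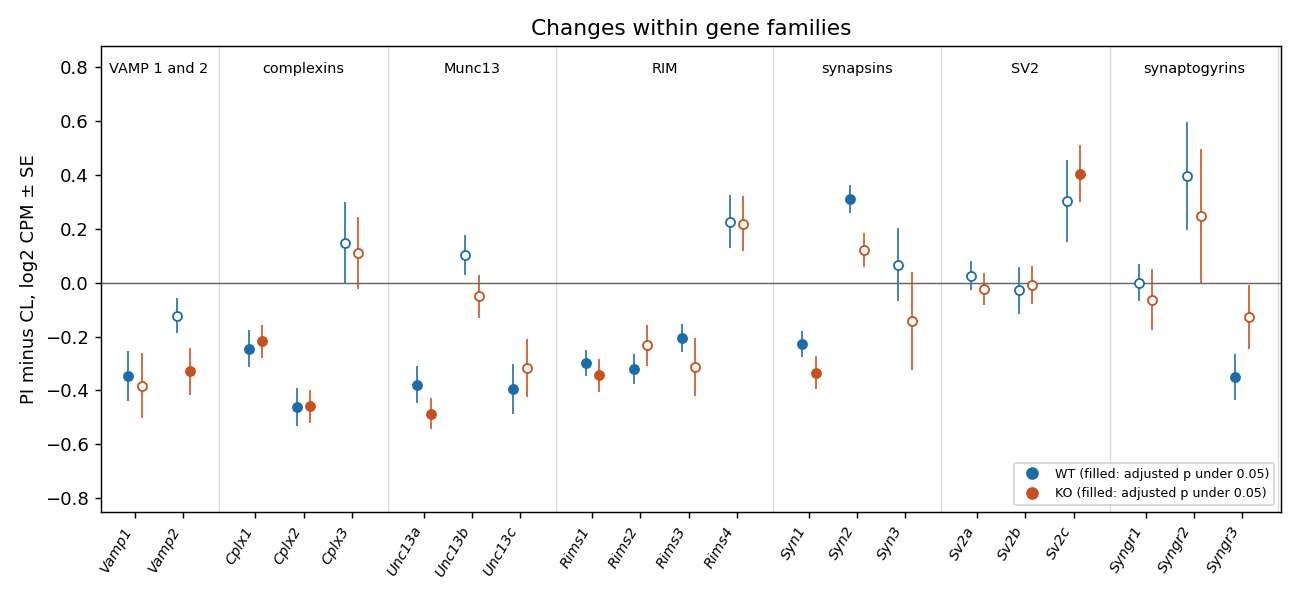
Change from CL to PI (vertical axis, log2 CPM ± SE) of members of 7 gene families, WT in blue and KO in orange, filled where the adjusted p was under 0.05. In the Munc13, RIM and synapsin families one member lies well below 0 (Unc13a, Rims1, Syn1) while another lies near or above it (Unc13b, Rims4, Syn2).

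With the WT and KO changes averaged over all 24 libraries, a comparison added after the values had been seen, 24 of the 71 genes (33.8%) were lower in PI and 7 (9.86%) higher, against 11.8% and 11.4% of 14211 genes. The genes called by this mean alone were Pclo (-0.17, adjusted p = 0.0133) and Syt4 (-0.15, adjusted p = 0.0433), which were lower, and Rims4 (0.22, adjusted p = 0.0336), Syt5 (0.22, adjusted p = 0.0387) and Syt12 (0.23, adjusted p = 0.0294), which were higher.

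Other genes of vesicle release that the rule does not take were given as a list of 47, of which 44 were listed. In WT 11 were lower and 3 higher, and in KO 8 were lower and 1 higher, with medians of -0.07 and -0.08. Lower in both genotypes were Cadps2 and Cadps, which prime dense-core vesicles (-0.87 and -0.36 in WT, -0.77 and -0.38 in KO), Rph3a and Rab3a, which make rabphilin and the vesicle GTPase it binds (-0.44 and -0.28 in WT, -0.42 and -0.20 in KO), and Sncb (-0.41 and -0.47). Rimbp2, which links RIM to calcium channels, was higher in both (0.45 and 0.30). Adjusted p-values of these calls (moderated trimmed-mean test with limma) were under the threshold of 0.05.

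Genes of the postsynaptic side were lower in the same contrast. All 15 postsynaptic genes tested had a negative change in both genotypes, and 7 were called lower in WT and 9 in KO, with medians of -0.21 and -0.29. Homer1 changed by -0.62 and -0.60 and Camk2a by -0.44 and -0.59. Of 16 general neuronal markers 4 were lower and 1 higher in WT and 3 lower in KO (medians -0.10 and -0.17), and of 12 excitatory cortical markers 2 and 1 were lower (medians -0.07 and -0.14). The 10 inhibitory neuron markers went both ways. Their changes ran from -0.47 to 0.52 in WT, where Vip was called lower, and from -0.42 to 0.48 in KO, where Gad2 and Npy were called higher and Kcnc1 lower, with medians of 0.02 and 0.01. In bulk tissue, fewer cells of a type and less RNA per cell cannot be told apart.

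**Figure D4:**
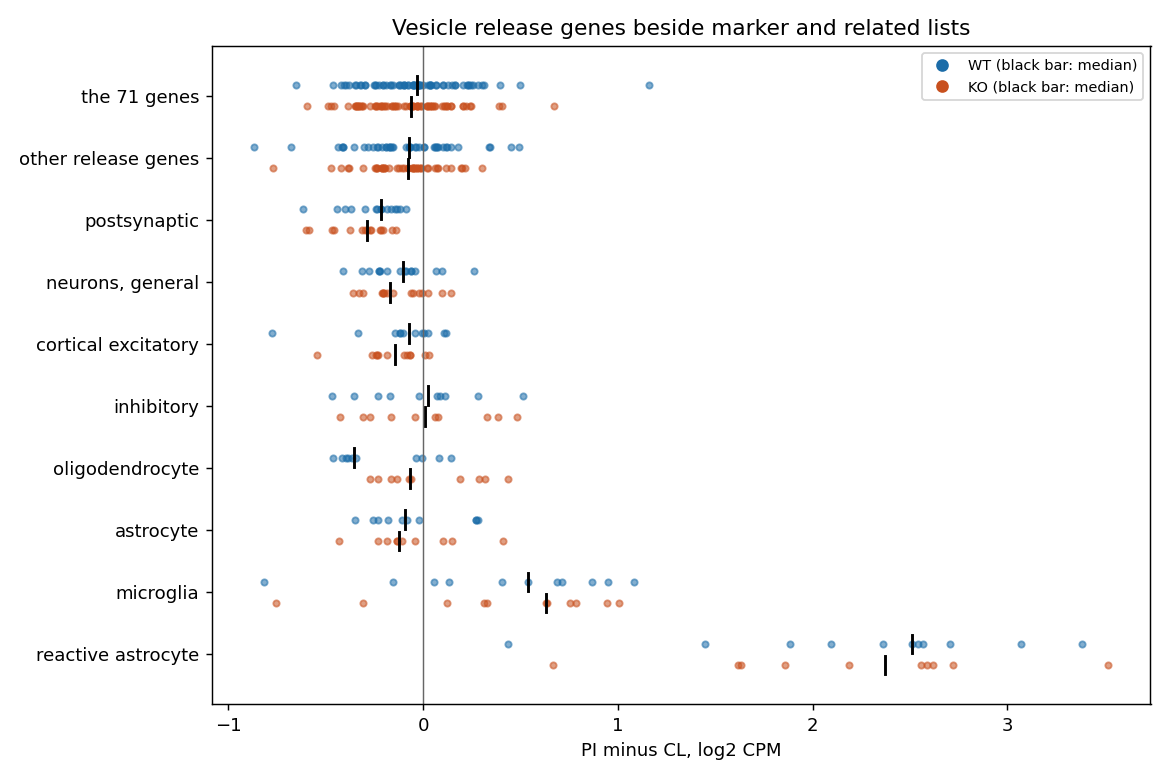
Change from CL to PI (horizontal axis, log2 CPM) of each gene of 10 lists, WT in blue and KO in orange, with the median as a black bar. The 71 genes spread on both sides of 0 with medians of -0.03 and -0.06, all 15 postsynaptic genes lie below 0, and reactive astrocyte genes lie above 0 with medians of 2.51 and 2.37.

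Markers of other cells moved with the same contrast, in both directions. All 11 reactive astrocyte genes tested had a positive change in WT, 10 of them called, and 10 of 10 in KO, 9 of them called. Their summed level ran from 6.80 to 7.09 log2 CPM in CL WT and from 8.83 to 9.04 in PI WT, and from 6.76 to 6.97 in CL KO and from 8.75 to 9.26 in PI KO. Microglial markers had medians of 0.54 and 0.63, with 6 of 11 called higher and 1 lower in each genotype. Their summed level ran from 7.59 to 7.68 in CL WT and from 7.81 to 7.96 in PI WT, and from 7.68 to 7.79 in CL KO and from 7.95 to 8.21 in PI KO. Of 10 astrocyte markers 7 were lower in value in each genotype (medians -0.09 and -0.12), with 3 called lower and 1 higher in WT and 1 each way in KO, and their summed level ran from 12.93 to 13.00 in CL WT and from 12.73 to 12.82 in PI WT, and from 12.93 to 13.02 in CL KO and from 12.69 to 12.83 in PI KO. Of 10 oligodendrocyte markers 8 were lower in value in WT and 6 in KO (medians -0.36 and -0.07), with 1 called lower in WT and none in KO. Their summed level ran from 11.14 to 11.27 in CL WT and from 10.64 to 11.13 in PI WT, and from 10.81 to 11.26 in CL KO and from 10.79 to 10.96 in PI KO. The summed level of the 16 general neuronal markers ran from 12.51 to 12.56 log2 CPM in CL WT and from 12.36 to 12.47 in PI WT, and from 12.49 to 12.55 in CL KO and from 12.37 to 12.47 in PI KO. That of the 71 genes ran from 13.91 to 13.96 and from 13.73 to 13.85 in WT, and from 13.94 to 13.96 and from 13.69 to 13.82 in KO. None of these markers lay at the lowest value of its table in all 6 libraries of a group. The part of a shift in cell types in the changes of the 71 genes was not tested.

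The study's own question, whether loss of ciRS-7 alters expression after stroke, gave no call among the 71 genes. Between PI KO and PI WT 0 of 71 were called, against 0.0208% of 14452 genes, and 5 (7.04%) had an unadjusted p under 0.05, against 5.75%. Between CL KO and CL WT 0 were called, against 0.0279% of 14323 genes, and 5 (7.04%) had an unadjusted p under 0.05, against 5.73%. These tests were the same moderated trimmed-mean test, while limma on the drawn-in values, which understates the spread, called 15 and 12. The median difference was -0.04 in PI, with 53 of the 71 genes (74.6%) lower in KO (all genes -0.00, with 51.5% lower), and 0.00 in CL, with 35 lower (all genes -0.00). Marker lists differed in value too, with no marker called. Lower in KO in PI were 12 of 15 postsynaptic genes (median -0.04) and 5 of 16 general neuronal markers (median 0.01). So were 6 of 12 excitatory (median 0.01) and 2 of 10 inhibitory markers (median 0.04). In CL these counts were 5, 7, 5 and 4, with medians of 0.03, 0.02, 0.03 and 0.01. In PI, 10 of 11 microglial markers (median 0.16) and 8 of 10 oligodendrocyte markers (median 0.08) were higher in KO. Also higher were 7 of 7 genes of a blood and leukocyte list that includes haemoglobin genes (median 0.44). So were 7 of 10 astrocyte markers (median 0.05) and 9 of 12 reactive astrocyte genes (median 0.09). Endothelial markers were higher in 4 of 10 and lower in 6 (median -0.05). In CL, 10 of 11 microglial (median 0.18) and 9 of 10 endothelial markers (median 0.13) were higher in KO. Astrocyte markers were higher in 5 of 10 (median -0.00) and reactive astrocyte genes in 2 of 6 (median -0.07). Of the blood and leukocyte list 4 of 5 were higher (median 0.46), and 10 of 10 oligodendrocyte markers were lower (median -0.16). The part of these shifts in the values of the 71 genes was not tested.

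Syn3 had the most negative difference between genotypes in PI. It ran from 4.37 to 4.73 log2 CPM (median 4.55) in PI WT and from 3.74 to 4.26 (median 4.00) in PI KO, without overlap, a difference of -0.55 (SE 0.17, 95% interval -0.92 to -0.18, adjusted p = 0.845). In CL it ran from 4.24 to 4.55 in WT and from 3.83 to 4.26 in KO, which overlap slightly, a difference of -0.34 (SE 0.15, adjusted p = 0.866). The other genes of smallest p in PI were Stxbp3 (-0.20, adjusted p = 0.854) and Snap29 (0.21, adjusted p = 0.854). In CL they were Bsn, which ran from 8.61 to 8.78 in WT and from 8.84 to 8.93 in KO (0.20, SE 0.06, adjusted p = 0.653), Stx3 (-0.19, adjusted p = 0.797) and Syn2 (0.13, adjusted p = 0.825).

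For the genes lower in both genotypes the data bound the difference between PI KO and PI WT. The 95% interval was -0.18 to 0.30 for Stx1a and -0.05 to 0.23 for Cplx2, and -0.13 to 0.11 for Syn1. An interaction fitted over all 24 libraries compared the CL to PI change of KO with that of WT. None of the 71 genes was called, as was none of 14211 (0%), and 2 genes, Syn2 and Syt16, had an unadjusted p under 0.05 (2.82%, against 4.55% of all genes). The KO change minus the WT change was -0.19 for Syn2 (SE 0.08, 95% interval -0.36 to -0.02), 0.21 for Syt16 (SE 0.10) and -0.20 for Vamp3 (SE 0.10), each with an adjusted p of 0.992 by the limma-moderated test. For Stx1a it was 0.06, with an interval of -0.21 to 0.33.

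The 12 genes with a miR-7 seed match were then set beside the 58 without one. In PI, KO minus WT had a median of -0.06 for the 12, of which 7 were lower in KO, and of -0.04 for the 58, of which 45 were lower. In CL the medians were -0.02 and 0.00, with 7 of 12 and 27 of 58 lower. Over all genes tested in PI the medians were -0.01 with a match and 0.00 without. Cplx1, whose 4 matches are shown above, differed by 0.02 in PI (SE 0.07) and by -0.00 in CL (SE 0.06). Syn3, with 1 match followed by A, had the most negative difference of all 71 genes in both PI and CL. That match was found in the longest annotated 3′ UTR, and which Syn3 transcripts hold it was not tested. Syt2, with 3 matches, differed by -0.09 and -0.04, and Stxbp6, also with 3, by 0.00 and -0.07. Snap29, with 1 match, had the most positive difference in PI, 0.21, and differed by 0.08 in CL. The values of the 12 genes lay on both sides of 0.

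**Figure D5:**
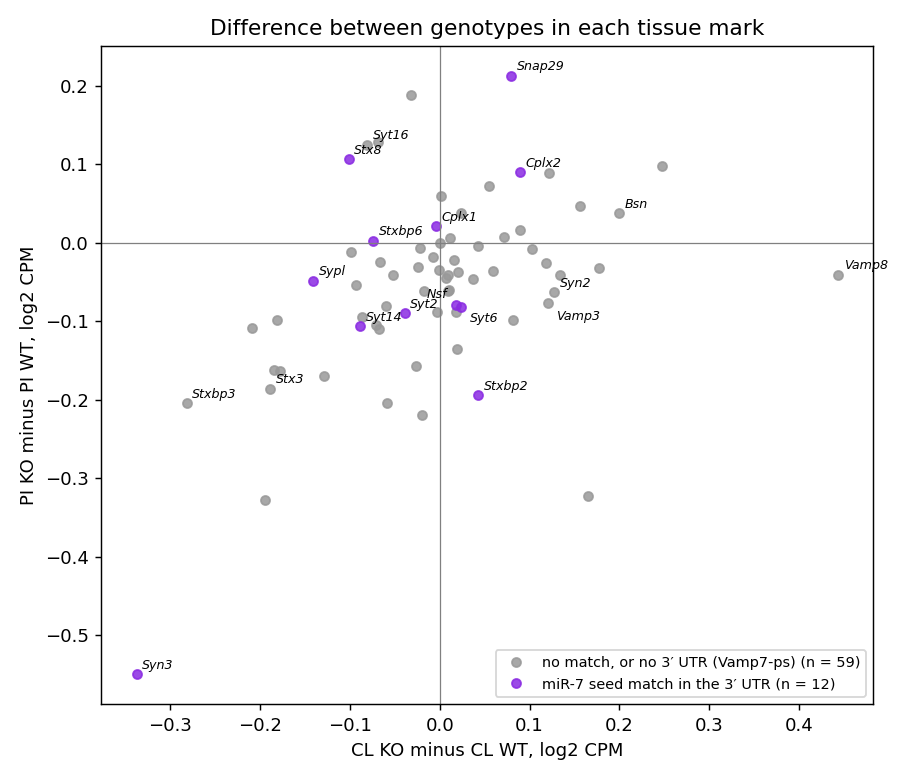
KO minus WT in PI (vertical axis, log2 CPM) against KO minus WT in CL (horizontal axis) for the 71 genes, those with a miR-7 seed match in purple. None passed the adjusted test, Syn3 lies lowest on both axes at -0.55 and -0.34, and the other 11 genes with a match lie on both sides of 0 in PI.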

How the data were processed

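The deposited values are log2 CPM in 4 tables of 2 groups each, per the file headers. TRIzol extraction, rRNA removal with RiboCop and CORALL library preparation are given per the labels' protocols. The genome build was mm10, per the submitters' processing notes. The aligner, counter, annotation and use of strand are not given in the sources used here. All columns of values were matched to a sample by its description and title (0 unused columns).

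Each gene's 6 values per group had been Winsorized to its quartiles before deposit, as found from the values: the tied ends equal 0.75 times the second value plus 0.25 times the next. The 4 inner values were solved from this. Of low values that the drawing in had not touched, 85.3% to 91.0% were whole reads within 0.03 read. The read size of each library was itself chosen to make this share high. Solved values were not part of this count. The main test compared means of these 4 values with the Winsorized sum of squares as error (6 degrees of freedom for 2 groups, 12 for 4), moderated with a trend by limma 3.58.1 in R 4.3.3, two-sided, with Benjamini-Hochberg adjustment over all genes of a table and calls at an adjusted p under 0.05. It was tested on simulated data, normally distributed, unpaired and drawn in alike, for PI WT minus CL WT and CL KO minus CL WT. A true log2 change of 0.3 was called in 55.6% and 52.2% of the changed genes, and one of 0.5 in 93.2% and 93.6%. The changed genes were not among the scarcest. Of the calls at 0.3, 5.79% and 5.58% were false. Tests over 4 groups were not simulated. Intervals of 95% use the moderated degrees of freedom. Libraries of a group came from separate animals.

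Within a genotype, PI and CL libraries with the same number come from 1 animal, per the labels. Deviations from the group means correlated by a median of 0.081 in WT and 0.084 in KO between libraries of 1 animal, and by -0.034 and -0.013 between animals. Since drawing in hides which animal gave which end value, the replicate block was fitted only to the deposited values.

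The 71 genes and all lists were chosen with earlier results of these data known. Named are 22 core genes, every gene called in a comparison, the gene of largest change in each direction for each role, and the 3 of smallest p for each genotype comparison and the interaction (44 in all), of which 2 are counted with the 71 genes but not reported here by name. Cplx3, Sv2b, Unc13b and the genes called only in the averaged comparison were named after their values were seen. Symbols, positions and 3′ UTRs are from GENCODE M21 (GRCm38), in which all 71 matched. Alternatives were limma on the deposited values, with and without the replicate block, a prior without trend, a robust prior, recentring, a low-value filter of log2 CPM 1, and a pseudocount of 1 CPM.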

Additional observations from a re-analysis of the deposited data

How the results depend on the processing

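The number of the 71 genes called depended on how the spread was treated. Limma on the deposited values, which takes the drawn-in spread as real, called 38 in WT and 38 in KO from CL to PI, 15 between PI KO and PI WT, 12 between CL KO and CL WT and 7 in the interaction. It also called 44.6% of all genes in WT and 46.5% in KO. With the animal or number as a replicate block the counts were 40, 39, 8 and 10; numbers pair animals from CL to PI but not between genotypes. A prior variance without trend called 9 in WT and 6 in KO, and 7.01% and 5.15% of all genes. Recentring, the low-value filter, the pseudocount and the robust prior gave 19 or 20 in WT and 15 or 16 in KO, and 0 between genotypes. None of the 35 calls of single genes from CL to PI reversed its direction under these alternatives, and without the trend 20 of them were lost. The median change of the 71 genes ran from -0.05 to -0.03 in WT and from -0.09 to -0.06 in KO over its alternatives. Depth limits Vamp8, Syngr2 and Syt9, the scarcest of the genes per length. The lowest and highest value of each group are not recoverable, so a single extreme animal cannot be seen, and leaving out single libraries was not run for that reason.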
